A study of Mus musculus with 18 samples.

Results

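The cadherin family examined here comprised the 35 rows of a gene count table whose symbols are Cdh or Pcdh followed by a number, with Pcdh11x included, of 24015 genes in all. By textbook class they were 5 type I classical cadherins, 13 type II classical cadherins, 5 atypical cadherins (Cdh13, Cdh16, Cdh17, Cdh23 and Cdh26), 4 delta-1 protocadherins, 5 delta-2 protocadherins and 3 other protocadherins, so the set is wider than the classical cadherins and delta protocadherins of the nervous system. Clustered protocadherins were not included. The levels came from RNA sequencing of tdTomato-positive neurons sorted from mouse cortex at postnatal day 5, about 25000 cells per sample. There were 3 groups of 4 libraries: layer 6 neurons of Tbr1 mutants, wild-type (WT) layer 5 neurons and WT layer 6 neurons. The mutant is a layer 6 null by its sample labels and a constitutive null by the series design, so it is called null here. The sources used here do not give which part of Tbr1 the allele lacks, whether and where a Cre is used, what drives tdTomato in each group, the strain or the number of animals per library. TBR1 is a transcription factor of the T-box family, and its binding was also profiled by chromatin immunoprecipitation at postnatal day 2, but those peaks are in another genome build than the gene tables at hand and were not used here.

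Cadherins are calcium-dependent adhesion proteins. Classical cadherins carry extracellular cadherin repeats, bind mainly to like molecules on the neighbouring cell, and hold beta-catenin, alpha-catenin and p120-type catenins with their cytoplasmic tail. Type I members, such as N-cadherin, bind strongly and broadly, whereas the type II members differ from one neuron class to another in the developing cortex. Delta protocadherins have weaker adhesion and tails that do not bind catenins, and several of the delta-2 group bind the WAVE complex, which controls actin branching. Both families are known for roles in cell sorting, axon growth and synapse formation.

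Levels are given in CPM, counts scaled to library size, with sizes adjusted by the trimmed mean of M-values (TMM) over the 12 libraries, which held 27465597 to 54899002 counts each. They are not divided by transcript length, so values are set side by side for the same gene only. The labels name no animals, and a p-value here measures the spread between libraries, which may be technical. Libraries of a group were closest in pairs, replicates 1 with 2 and 3 with 4 in layer 6 and 1 with 3 and 2 with 4 in layer 5. Null libraries gave a chi-square per degree of freedom of 8.72 to 10.4 within pairs and 22.2 to 59.4 across them. WT layer 5 libraries gave 1.33 to 1.39 within pairs and 2.94 to 3.35 across them. WT layer 6 libraries gave 3.21 to 5.05 within pairs and 10.6 to 19.2 across them. Whether a pair shares its source is not stated, so the number of members called in each comparison is also given with pairs summed. The partner list was not run in that way. Tbr1 itself stood at 92.4, 98.2, 95.1 and 96.1 CPM in null libraries, at 44.9, 39.7, 42.5 and 40.6 CPM in WT layer 5 and at 170.3, 172, 183 and 183 CPM in WT layer 6. Every null value of Tbr1 was below every WT layer 6 value (log2 fold change -0.89 ± 0.035), and reads over the whole gene do not check which part is deleted. Each library is a bulk sample of sorted cells, so fewer cells of a type and less RNA per cell cannot be told apart. All 6 corticothalamic markers, which include Tbr1 itself, were detected in each group. Their summed level was 298 to 334 CPM in null, 250.2 to 267 CPM in WT layer 5 and 541 to 598 CPM in WT layer 6. The 6 layer 5 subcerebral markers summed to 684 to 755 CPM in null, 286 to 295 CPM in WT layer 5 and 525 to 577 CPM in WT layer 6, and 5 of the 6, Fezf2 and Bcl11b among them, were called lower in WT layer 5 than in WT layer 6, which goes against the layer 5 label.

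In null layer 6 neurons, the cadherin family moved in both directions. Of 32 members tested, 10 were higher in null and 8 were lower than in WT layer 6 (edgeR quasi-likelihood test, adjusted p under 0.05 over 14588 genes), and 14 were not called. The protocadherins called were higher in 7 cases and lower in 1, and the type I and type II cadherins were lower in 7 cases and higher in 2. Over all genes tested 14.2% were called, 7.31% higher and 6.86% lower, against 56.2% of the tested members. Among genes with a mean of at least 10 CPM, 16.0% were called, against 14 of 23 members at that level. The median log2 fold change was 0.094 over the tested members and 0.00034 over all genes tested. Null and WT layer 6 did not overlap in 18 of the 32 tested members, the same 18 that were called, against 19.8% of all genes. With the libraries of a pair summed, 2 against 2, 4 members were called higher (Cdh7, Cdh8, Cdh23 and Pcdh19) and 2 lower (Cdh4 and Cdh9), where 3.15% of all genes were called. All 18 kept their direction in that fit. Called and over 2-fold were Cdh23 and Cdh9, where 1.34% of all genes were. Scaling by library totals alone gave 866 genes higher and 1238 lower, against 1067 and 1001 with TMM, and left the member counts at 10 and 8. Of 9 marker lists, 6 had summed levels that did not overlap between null and WT layer 6. Layer 5 subcerebral, astrocyte and newborn or dividing cell markers were higher in null, the astrocyte list at 981 to 1048 CPM in null libraries and 801 to 932 CPM in WT. Corticothalamic, interneuron and endothelial and mural sums were lower in null, the interneuron list at 328 to 334 CPM in null libraries and 346 to 365 CPM in WT. Not every marker moved with its sum. Of 7 interneuron markers, 3 were called lower, 1 higher and 3 not called. Of 7 astrocyte markers, 4 were higher, 1 lower and 2 not called. Called higher were 3 of 5 newborn or dividing cell markers and 4 of 6 layer 5 subcerebral markers. Called lower were 1 of 7 endothelial and mural markers and all 6 corticothalamic markers. No marker of the 9 lists was at 0 in every library of a group, and the part of these cells in the results was not tested. The share of counts from the ribosomal RNA precursor Rn45s also moved, at 0.921%, 0.592%, 1.63% and 2.67% in null, 1.21% to 1.252% in WT layer 5 and 0.384% to 0.723% in WT layer 6, and its part was not tested.

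**Figure D1:**
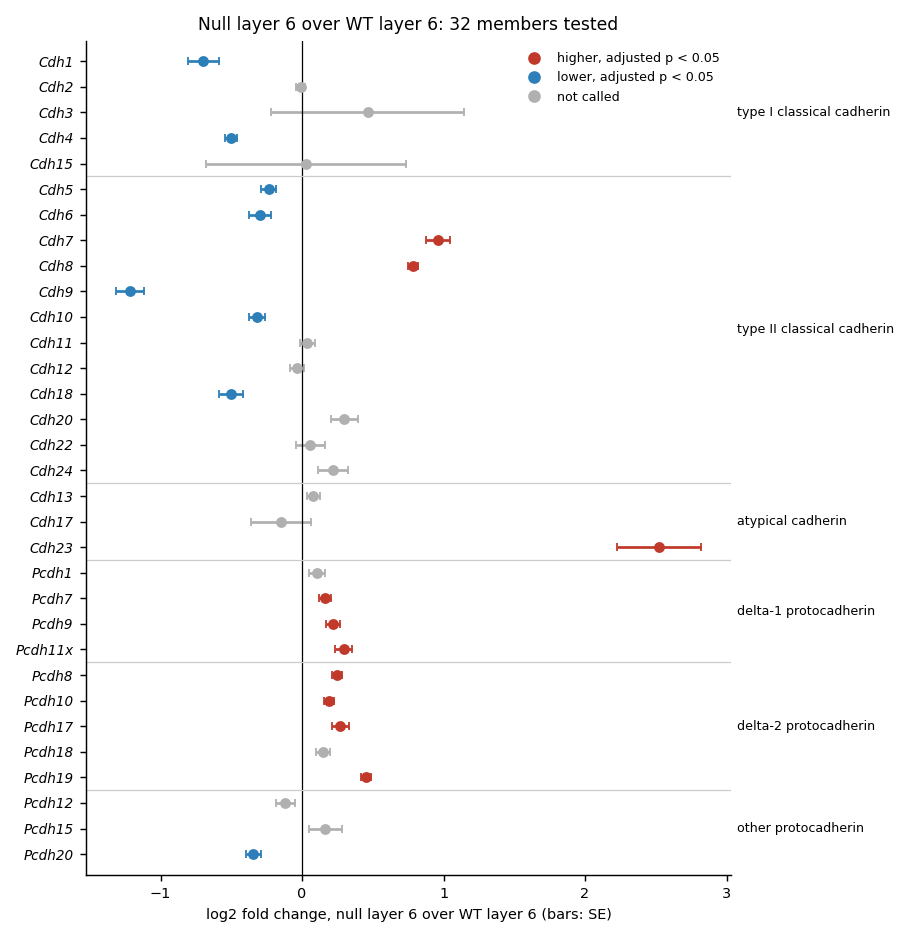
Log2 fold change of null layer 6 over WT layer 6 for the 32 members tested, with SE bars, grouped by class and coloured by call. Cdh23, Cdh7 and Cdh8 lie farthest to the right among the called members and Cdh9 farthest to the left, while 7 of the 9 delta protocadherins lie to the right as called genes and none of the 9 is called lower.

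Of 12 type II cadherins tested, 2 were higher in null and 5 lower, against 7.31% and 6.86% of all genes. With pairs summed, Cdh7, Cdh8 and Cdh9 kept their calls. Cdh8, a type II cadherin of cortical and thalamic circuits, stood at 192, 197, 179 and 185 CPM in null libraries, against 115, 106, 107 and 109 CPM in WT libraries. Every null library was above every WT library, and the log2 fold change was 0.78 ± 0.037 (SE; edgeR adjusted p = 3.17e-08). Cdh7 had 15.4, 13.95, 15.3 and 16.6 CPM in null libraries and 8.90, 7.77, 7.60 and 7.18 CPM in WT libraries, 1.95-fold higher in null at a log2 fold change of 0.96 ± 0.083 (edgeR adjusted p = 5.2e-06). Its lowest null library was 5.05 CPM above its highest WT library. Cdh9, which acts in the formation of hippocampal mossy fibre synapses in mice, went the other way. It had 6.17, 4.81, 4.46 and 5.02 CPM in null, against 11.1, 11.7, 12.99 and 11.8 CPM in WT libraries, 2.32-fold lower in null at a log2 fold change of -1.22 ± 0.10 (edgeR adjusted p = 3.99e-06).

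The other type II members that were lower changed less. Cdh18 had 7.68, 7.67, 6.82 and 7.05 CPM in null libraries and 9.72, 9.36, 11.2 and 11.1 CPM in WT libraries, at a log2 fold change of -0.50 ± 0.085. Cdh10 had 60.3, 58.95, 56.9 and 49.8 CPM in null libraries and 67.4, 70.3, 70.7 and 73.4 CPM in WT libraries, at a log2 fold change of -0.32 ± 0.054. Null libraries were below WT libraries in both genes without overlap, at edgeR adjusted p = 0.00136 for Cdh18 and 0.00146 for Cdh10. Cdh6 had 19.3, 18.6, 17.3 and 15.6 CPM in null libraries and 19.8, 20.6, 23.5 and 23.04 CPM in WT libraries, at a log2 fold change of -0.30 ± 0.077 (edgeR adjusted p = 0.0198). The highest null library and the lowest WT library of Cdh6 were 0.46 CPM apart. Its call was lost without null replicate 4 (edgeR adjusted p = 0.0538), without WT replicate 3 (adjusted p = 0.0606) and without WT replicate 4 (adjusted p = 0.0581). It was also lost with a replicate block (edgeR adjusted p = 0.0747) and on the authors' normalized scores (limma adjusted p = 0.121). The log2 fold change of Cdh6 was -0.39 against WT replicates 3 and 4 alone. Against WT replicates 1 and 2 alone it was -0.19, where the call was lost (edgeR adjusted p = 0.179).

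Cdh5 encodes VE-cadherin, the adhesion protein of endothelial junctions. It had 25.4, 25.9, 24.7 and 26.4 CPM in null, against 30.5, 31.7, 31.1 and 27.4 CPM in WT libraries, at a log2 fold change of -0.23 ± 0.054 (edgeR adjusted p = 0.0107). The summed level of 7 endothelial and mural markers moved with it, at 264 to 269.5 CPM in null libraries and 283 to 289.8 CPM in WT libraries, and none of the 7 was at 0. Of these, Cldn5 was called lower at -0.21 ± 0.062 on the log2 scale, Pecam1 was not called at -0.085 ± 0.051, and 0 were called higher. The part of vascular RNA in the Cdh5 value was not tested.

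Among type I cadherins, Cdh4 and Cdh1 were lower in null. Cdh4, or R-cadherin, had 79.96, 83.5, 85.9 and 84.04 CPM in null libraries and 122, 125, 113 and 113 CPM in WT libraries. The closest null and WT libraries were 26.8 CPM apart, and the log2 fold change was -0.50 ± 0.042 (edgeR adjusted p = 3.75e-06). Cdh1, or E-cadherin, best known from epithelia, had 5.58, 5.39, 6.43 and 7.31 CPM in null libraries and 10.1, 11.3, 9.73 and 9.004 CPM in WT libraries, at a log2 fold change of -0.70 ± 0.11 (edgeR adjusted p = 0.000779). Cdh2, or N-cadherin, the general neuronal type I cadherin, was not called. It had 429, 427, 415 and 405 CPM in null libraries and 409, 414, 434 and 431 CPM in WT libraries, which overlap, at a log2 fold change of -0.011 ± 0.032.

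Of the 5 atypical cadherins, 3 were tested and Cdh23 was the 1 called, with the largest fold change of the 18 called members. Cdh23 is known as the upper part of the tip link of hair cells, with protocadherin 15 as the lower part. It had 3.44, 2.71, 6.18 and 6.69 CPM in null libraries and 1.07, 0.720, 0.793 and 0.693 CPM in WT libraries, 5.75-fold higher in null (log2 fold change 2.52 ± 0.30, edgeR adjusted p = 7.5e-05). The authors' normalized scores gave a smaller log2 fold change of 1.70 (limma adjusted p = 0.0157). Its null libraries split by pair, with replicates 1 and 2 well below replicates 3 and 4. In counts these are 162, 122, 252 and 280 reads, against 51, 24, 36 and 38 reads in WT libraries. Pcdh15, its partner in the ear, had 8.68 ± 1.22 CPM in null libraries and 7.74 ± 1.03 CPM in WT libraries (SD, n = 4 each) and was not called.

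Delta protocadherins were higher in null or not called. Of 4 delta-1 members, 3 were higher, and of 5 delta-2 members, 4 were higher, where 7.31% of all genes were called higher. With pairs summed, Pcdh19 alone of the 9 kept its call. Pcdh19, a delta-2 protocadherin whose loss causes an X-linked epilepsy in humans, changed most of the 9 on the log2 scale. It had 132, 134, 139.7 and 139 CPM in null, against 99.9, 104, 99.5 and 95.98 CPM in WT libraries, at a log2 fold change of 0.45 ± 0.035 (edgeR adjusted p = 1.99e-06). The lowest null library was 28.1 CPM above the highest WT library. Pcdh8, known in rat hippocampus for driving uptake of N-cadherin from synapses, had 168, 178, 182 and 187 CPM in null libraries and 155, 154, 147 and 147 CPM in WT libraries, at 0.25 ± 0.038 on the log2 scale. Pcdh17, known in mice from corticostriatal synapses, had 151, 141, 149 and 144 CPM in null libraries and 131, 133, 110.5 and 110.4 CPM in WT libraries, at 0.27 ± 0.060. WT replicates 3 and 4 of Pcdh17 were below replicates 1 and 2, and the log2 fold change was 0.41 against the first of these pairs and 0.15 against the other. Pcdh10, known in mice for axon growth through the ventral forebrain, had 169, 175, 159 and 157 CPM in null libraries and 145, 145, 146 and 142 CPM in WT libraries, at 0.19 ± 0.036. The edgeR adjusted p was 0.000604 for Pcdh8, 0.00857 for Pcdh17 and 0.00289 for Pcdh10. Pcdh18, the remaining delta-2 member, was not called at 0.15 ± 0.048 (edgeR adjusted p = 0.0595). It was called by DESeq2, and by edgeR without null replicate 3, without WT replicate 2 and with all 3 groups in 1 fit.

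The 3 delta-1 members that were higher changed by at most 0.30 log2 units. Pcdh11x, which lies on the X chromosome as Pcdh19 does, had 31.2, 29.4, 30.6 and 32.2 CPM in null libraries and 27.2, 26.4, 22.9 and 24.2 CPM in WT libraries, at 0.30 ± 0.060 (edgeR adjusted p = 0.00466). Its WT replicates 1 and 2 were above replicates 3 and 4, and against replicates 1 and 2 alone the call was lost at an adjusted p of 0.0531 and a log2 fold change of 0.20. Pcdh9 had 208, 207, 191 and 186 CPM in null libraries and 159, 163, 182 and 177 CPM in WT libraries, at 0.22 ± 0.050 (edgeR adjusted p = 0.0104), and at 0.14 against WT replicates 3 and 4 alone, where the call was lost (adjusted p = 0.0932). Pcdh7 had 235, 233, 224 and 219 CPM in null libraries and 194, 193, 217 and 211 CPM in WT libraries, at 0.16 ± 0.042. The closest null and WT libraries of Pcdh7 were 1.98 CPM apart. The Pcdh7 call, at an edgeR adjusted p of 0.0217, was lost without null replicate 1 (0.0582), null replicate 2 (0.0638), WT replicate 1 (0.0642) or WT replicate 2 (0.068). Pcdh1 was not called, at 46.3 ± 1.61 CPM in null libraries and 43.00 ± 3.63 CPM in WT libraries (SD, n = 4 each). Pcdh20 was the 1 protocadherin lower in null, with 39.2, 36.4, 41.6 and 40.6 CPM in null libraries and 51.3, 52.7, 47.4 and 48.8 CPM in WT libraries (log2 fold change -0.34 ± 0.051, edgeR adjusted p = 0.000455).

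**Figure D2:**
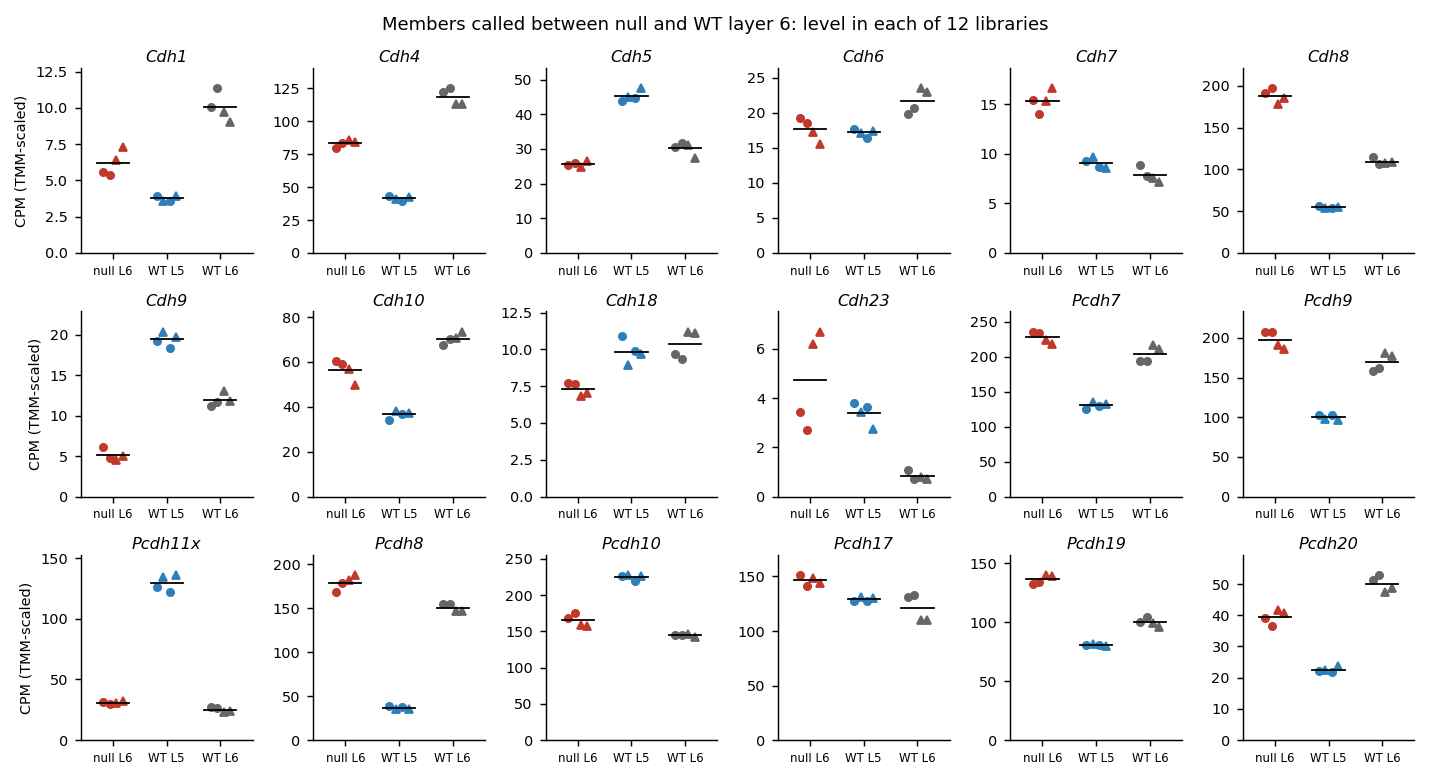
CPM of the 18 members called between null and WT layer 6 in each of the 12 libraries, by group, with a line at the group mean; circles and triangles mark the pairs of libraries. Red points (null L6) and grey points (WT L6) do not overlap in any panel, and the null libraries of Cdh23 range from 2.71 to 6.69 CPM.

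The 14 members not called between null and WT layer 6 had log2 fold changes from -0.15 to 0.46 and edgeR adjusted p from 0.0539 to 0.985. Cdh20 was nearest to the threshold, with 13.5 ± 1.96 CPM in null libraries and 11.01 ± 0.379 CPM in WT libraries (SD, n = 4 each). It was called by DESeq2, and by edgeR without null replicate 3 and with all 3 groups in 1 fit. Cdh11 had 208 ± 13.1 CPM in null libraries and 202 ± 14.6 CPM in WT, and Cdh13, or T-cadherin, which is held in the membrane by a lipid anchor, had 113 ± 5.49 CPM in null libraries and 107 ± 5.19 CPM in WT. Cdh12, Cdh22, Cdh24 and Pcdh12 had log2 fold changes from -0.12 to 0.22. Cdh19 and Cdh26, with at most 10 counts in any layer 6 library, and Cdh16, with 0 counts in all 12 libraries, were not tested. A count of 0 allows up to 3 counts, or 0.0546 to 0.109 CPM per library, for counting error only.

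Members that neighbour each other on a chromosome were compared by their place in the gene order of RefSeq (GRCm38.p6). Chromosome 15 holds 5 type II members, Cdh6, Cdh9, Cdh10, Cdh12 and Cdh18, with 0 other protein-coding genes between the first 4 and 1 between Cdh12 and Cdh18. Of these 5, 4 were lower in null and 0 were higher, where 6.86% of all genes were lower. With pairs summed, Cdh9 alone kept its call, and the edgeR adjusted p was 0.24 for Cdh6, 0.0645 for Cdh10 and 0.089 for Cdh18. Cdh12 was the exception, with 34.4, 31.8, 30.7 and 29.9 CPM in null libraries and 32.6, 32.9, 32.01 and 32.6 CPM in WT libraries, which overlap. Its log2 fold change was -0.037 ± 0.049. In WT layer 5 the same genes did not share a direction against WT layer 6, with Cdh9 higher, Cdh6, Cdh10 and Cdh12 lower and Cdh18 not called. The grouping by chromosome was chosen after the values were seen, and the genes are not independent replicates. On chromosome 14, Pcdh8, Pcdh17 and Pcdh9 were higher in null and Pcdh20, which lies between Pcdh17 and Pcdh9 in gene order, was lower. Chromosome 8 holds 8 members, of which 7 were tested. In null, 1 was higher, 2 were lower and 4 were not called, where 7.31% of all genes were higher and 6.86% lower. Its neighbours Cdh8, Cdh11 and Cdh5, with 0 other protein-coding genes between them, were higher, not called and lower.

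**Figure D3:**
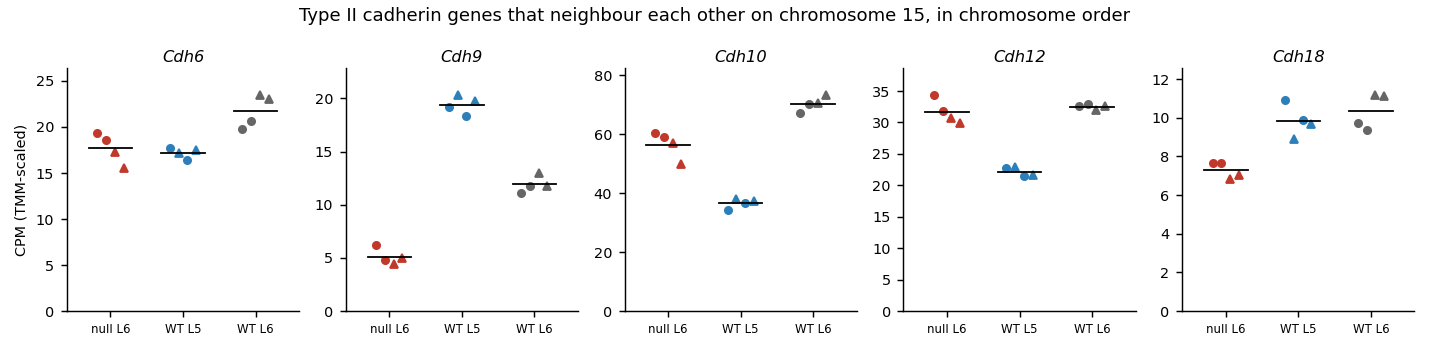
CPM of the 5 type II cadherin genes of chromosome 15, in chromosome order, in each of the 12 libraries, with a line at the group mean; circles and triangles mark pairs of libraries. Null L6 points lie below WT L6 points in Cdh6, Cdh9, Cdh10 and Cdh18 and overlap them in Cdh12, and Cdh9 is the 1 gene of the 5 with its highest mean in WT L5, at 19.4 CPM.

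Because the mutant lacks a T-box factor, the promoters of the members were searched for the T-box site AGGTGTGA and its core GTGTGA on both strands. RefSeq (GRCm38.p6) promoter entries were at hand for 22 of the 35 members, 25 entries in all, and the 250 bases before each gene's start were used. The full site was in 0 of the 25 entries, against 1.12% of 32841 promoters of the same length. The core, which the full site contains, was in 5 of the 25, those of Cdh6, Cdh7, Cdh15, Cdh18 and Pcdh10, against 12.3% of all promoters. Of the 4 with a core that were called in null layer 6, Cdh7 and Pcdh10 were higher and Cdh6 and Cdh18 lower. Their sequences are shown first, followed by Cdh8 and Cdh9, the called members with the smallest adjusted p in each direction among those with an entry, neither of which holds the core. Sequences run 5′ to 3′ toward the gene's start, and capitals mark the core on either strand.
Cdh7 (chr1:109983473-109983722, plus strand): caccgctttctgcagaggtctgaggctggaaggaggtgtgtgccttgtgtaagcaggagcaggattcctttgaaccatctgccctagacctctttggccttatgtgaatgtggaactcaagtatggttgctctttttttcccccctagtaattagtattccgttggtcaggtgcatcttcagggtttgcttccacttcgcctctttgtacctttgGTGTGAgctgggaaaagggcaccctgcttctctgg
Pcdh10 (chr3:45378148-45378397, plus strand): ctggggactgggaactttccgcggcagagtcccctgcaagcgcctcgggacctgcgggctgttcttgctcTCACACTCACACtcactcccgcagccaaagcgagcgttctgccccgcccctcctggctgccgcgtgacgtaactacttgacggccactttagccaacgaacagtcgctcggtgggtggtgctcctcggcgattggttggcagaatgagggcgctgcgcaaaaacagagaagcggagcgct
Cdh6 (chr15:13173676-13173925, minus strand): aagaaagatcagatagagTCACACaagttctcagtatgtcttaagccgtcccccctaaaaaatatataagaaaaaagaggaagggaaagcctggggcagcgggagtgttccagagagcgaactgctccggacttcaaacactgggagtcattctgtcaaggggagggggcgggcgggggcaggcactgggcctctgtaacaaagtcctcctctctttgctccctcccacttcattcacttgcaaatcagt
Cdh18 (chr15:23036213-23036462, plus strand): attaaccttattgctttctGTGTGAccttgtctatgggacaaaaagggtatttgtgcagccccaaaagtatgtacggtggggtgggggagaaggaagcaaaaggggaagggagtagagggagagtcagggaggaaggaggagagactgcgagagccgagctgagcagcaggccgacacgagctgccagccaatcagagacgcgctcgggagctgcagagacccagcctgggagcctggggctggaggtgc
Cdh8 (chr8:99416472-99416721, minus strand): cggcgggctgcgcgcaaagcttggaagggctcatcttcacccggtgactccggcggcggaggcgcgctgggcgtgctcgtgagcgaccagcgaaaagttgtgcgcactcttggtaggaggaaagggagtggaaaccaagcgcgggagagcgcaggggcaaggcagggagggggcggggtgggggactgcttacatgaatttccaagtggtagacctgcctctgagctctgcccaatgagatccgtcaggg
Cdh9 (chr15:16728665-16728914, plus strand): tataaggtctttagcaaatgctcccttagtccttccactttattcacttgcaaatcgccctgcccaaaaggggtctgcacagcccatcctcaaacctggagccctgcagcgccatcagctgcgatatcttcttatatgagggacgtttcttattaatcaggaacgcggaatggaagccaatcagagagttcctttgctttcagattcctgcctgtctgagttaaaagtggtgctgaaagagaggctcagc
In Pcdh10 the core occurs at 2 adjoining places, and in Cdh7 it is in 1 of 3 listed promoters. A match of letters describes the sequence and is no evidence of binding.

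Most catenins and other partners of cadherins were not called between null and WT layer 6. Of 32 partner genes tested (catenins, junction adaptors, nectins, the WAVE complex and shedding proteases), 3 were higher in null, 3 were lower and 26 were not called, a share of 18.8% against 14.2% of all genes. Their median log2 fold change was 0.0057. Pvrl3, which encodes nectin-3, an adhesion molecule that recruits cadherins to junctions, averaged 108 ± 1.79 CPM in null libraries, against 75.1 ± 2.23 CPM in WT layer 6 (SD, n = 4 each; log2 fold change 0.52 ± 0.033, edgeR adjusted p = 2.75e-07). Pvrl1, encoding nectin-1, was at 0.22 ± 0.037 and the WAVE subunit gene Wasf1 at 0.34 ± 0.051 on the log2 scale, both higher in null. Ctnnb1, which encodes beta-catenin, was lower at -0.12 ± 0.028, as were the p120-family gene Arvcf at -0.19 ± 0.044 and Wasf2 at -0.27 ± 0.064. Ctnna2, the neuronal alpha-catenin gene, had 383 ± 11.2 CPM in null libraries and 371 ± 3.14 CPM in WT and was not called.

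Between the WT layers, most of the family differed. Of 34 members tested, 14 were higher and 17 lower in WT layer 5 than in WT layer 6 and 3 were not called, a share of 91.2% against 85.5% of all 14927 genes tested, so members were called about as often as any gene. Of all genes 42.2% were higher and 43.4% lower. At a mean of at least 10 CPM, 22 of 24 members were called, against 89.5% of genes. Called and over 2-fold were 14 members of 34, against 27.6% of all genes. Layer and sequencing batch (A for layer 6, B and C for layer 5) cannot be told apart in this comparison. Marker sums moved with it: 7 astrocyte markers summed to 4929 to 4968 CPM in WT layer 5 and 801 to 932 CPM in WT layer 6, and 7 oligodendrocyte lineage markers to 1019 to 1028 CPM and 239.8 to 249 CPM in the same order. The 6 microglia markers summed to 226 to 234 CPM in WT layer 5 and 64.2 to 74.4 CPM in WT layer 6, and endothelial and mural markers to 615 to 634 CPM and 283 to 289.8 CPM. Every marker of these 4 lists was called higher in WT layer 5. Interneuron markers summed to 190.5 to 198 CPM in WT layer 5 and 346 to 365 CPM in WT layer 6. Of these 7, 6 were called lower in WT layer 5 and 1 was not called. Markers of dividing or newborn cells summed to 172 to 181 CPM in WT layer 5 and 304 to 313 CPM in WT layer 6. Of these 5, 4 were called lower and 1 was not called. Leptomeningeal fibroblast markers summed to 403 to 414 CPM in WT layer 5 and 286 to 336 CPM in WT layer 6, with 2 called higher and 2 lower. The part of these cells in the values of this comparison was not tested. With pairs summed, 13 members were higher and 17 lower, without the call of Cdh7, where 78.5% of all genes were called. With layer 5 batch B alone 14 members were higher and 17 lower, where 80.3% of all genes were called. With batch C alone the counts were 13 and 17, where 79.6% of all genes were called. Each batch holds a library of each layer 5 pair, so these fits are not independent of each other.

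**Figure D4:**
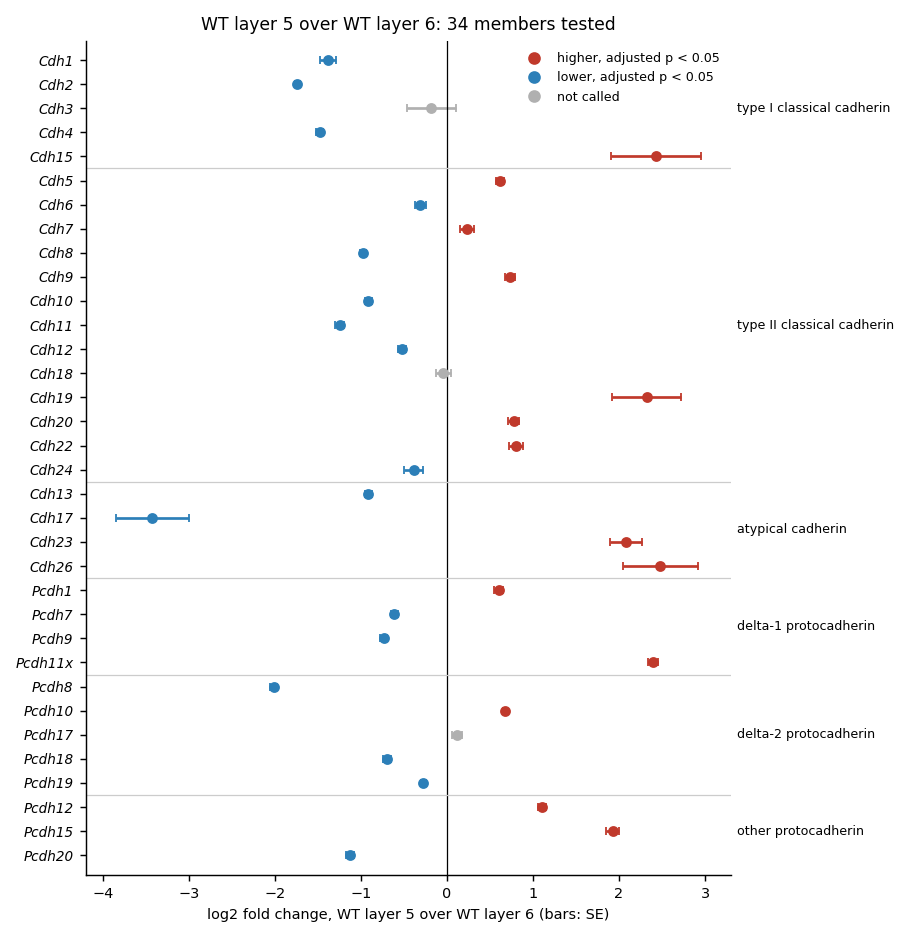
Log2 fold change of WT layer 5 over WT layer 6 for the 34 members tested, with SE bars, grouped by class and coloured by call. Cdh17 lies farthest to the left at -3.42 and Cdh26, Cdh15, Pcdh11x and Cdh19 farthest to the right at 2.32 to 2.48, while Cdh3, Cdh18 and Pcdh17 were not called.

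The 17 members lower in WT layer 5 included 3 of the 5 type I cadherins, Cdh1, Cdh2 and Cdh4, where 43.4% of all genes were lower. Cdh2 had 119, 128, 126 and 124 CPM in WT layer 5, against 409, 414, 434 and 431 CPM in WT layer 6. It was 3.33-fold lower in layer 5, with no overlap, at a log2 fold change of -1.74 ± 0.029 (edgeR adjusted p = 5.6e-16). Pcdh8 had 39.1, 34.9, 37.1 and 34.9 CPM in WT layer 5 and 155, 154, 147 and 147 CPM in WT layer 6, 4.04-fold lower in layer 5 (log2 fold change -2.01 ± 0.041, edgeR adjusted p = 3.72e-15). Cdh4 averaged 41.4 ± 1.82 CPM in WT layer 5 and 118 ± 6.26 CPM in WT layer 6, Cdh11 83.6 ± 3.70 and 202 ± 14.6 CPM, and Cdh8 54.7 ± 1.49 and 109 ± 3.78 CPM in the same order (SD, n = 4 each). Pcdh20 was lower by 2.18-fold, Cdh1 by 2.60-fold and Cdh10 and Cdh13 by 1.89- and 1.88-fold. The delta protocadherins Pcdh7, Pcdh9, Pcdh18 and Pcdh19 were lower with log2 fold changes of -0.61 ± 0.039, -0.74 ± 0.042, -0.70 ± 0.047 and -0.27 ± 0.031.

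Pcdh11x was the delta protocadherin with the largest fold change between layers, and it was higher in WT layer 5. It had 126, 135, 122 and 136 CPM in WT layer 5, against 27.2, 26.4, 22.9 and 24.2 CPM in WT layer 6. The layer 5 libraries were 5.26-fold higher at a log2 fold change of 2.40 ± 0.054 (edgeR adjusted p = 1.18e-14), and every layer 5 value was above every layer 6 value. Pcdh15 averaged 28.98 ± 0.851 CPM in WT layer 5 and 7.74 ± 1.03 CPM in WT layer 6, Pcdh10 225 ± 3.41 and 144 ± 1.66 CPM, and Pcdh1 63.8 ± 2.96 and 43.00 ± 3.63 CPM in the same order (SD, n = 4 each). Cdh9 averaged 19.4 ± 0.832 CPM in WT layer 5 and 11.9 ± 0.776 CPM in WT layer 6. Cdh20 and Cdh22 were 1.71- and 1.74-fold higher in layer 5. Cdh7, at a log2 fold change of 0.24 ± 0.084 (edgeR adjusted p = 0.0167), lost its call without WT layer 6 replicate 4 (0.0635), without WT layer 5 replicate 2 (0.0556) and against layer 5 batch C alone (0.187).

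The endothelial members were higher in WT layer 5, as were the vascular markers and 42.2% of all genes. Cdh5 averaged 45.2 ± 1.59 CPM in WT layer 5 and 30.2 ± 1.91 CPM in WT layer 6, a log2 fold change of 0.61 ± 0.048. Pcdh12, a protocadherin best known from endothelial cells, averaged 27.5 ± 0.756 CPM in WT layer 5 and 13.1 ± 0.542 CPM in WT layer 6, a log2 fold change of 1.10 ± 0.051. In the same libraries the endothelial genes Cldn5 and Pecam1 were higher in layer 5 by 1.35 ± 0.045 and 0.98 ± 0.050 log2 units. The part of vascular RNA in the Cdh5 and Pcdh12 values was not tested.

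Members with few counts had wide errors between layers. Cdh17, or LI-cadherin of the intestine, had 14, 0, 9 and 2 counts in WT layer 5 and 128, 71, 78 and 96 counts in WT layer 6, and 67, 70, 97 and 89 counts in null layer 6. In layer 5 the counts of replicates 1 and 3 were above those of replicates 2 and 4, which are the pairs of that group. Its log2 fold change was -3.42 ± 0.43 (edgeR adjusted p = 3.14e-06), and -4.07 to -3.003 with 1 library left out. Cdh15, or M-cadherin of muscle, had 123, 109, 90 and 98 counts in WT layer 5 and 0, 3, 43 and 65 counts in WT layer 6, a log2 fold change of 2.43 ± 0.52 (edgeR adjusted p = 0.000562), and 21, 27, 28 and 27 counts in null layer 6. WT layer 6 replicates 1 and 2 had next to none of it, and the log2 fold change between the layers was 3.14 without replicate 4 of WT layer 6 and 1.999 without replicate 1. Cdh19, known from Schwann cell precursors, had 12, 22, 11 and 14 counts in WT layer 5 and 3, 3, 4 and 6 in WT layer 6 (2.32 ± 0.40 on the log2 scale). Cdh26 had 18, 25, 9 and 14 counts in WT layer 5 and 5, 1, 3 and 7 in WT layer 6 (2.48 ± 0.43), and it fell under the filter on low counts without layer 5 replicate 1. Cdh23 had 3.79, 3.44, 3.65 and 2.75 CPM in WT layer 5 and 1.07, 0.720, 0.793 and 0.693 CPM in WT layer 6, a log2 fold change of 2.08 ± 0.18 (edgeR adjusted p = 5.53e-08). The authors' normalized scores gave smaller log2 fold changes, 0.75 for Cdh23, 1.19 for Cdh15 and -1.69 for Cdh17. Over all tested members the layers did not overlap in 30 of 34, against 81.1% of all genes.

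**Figure D5:**
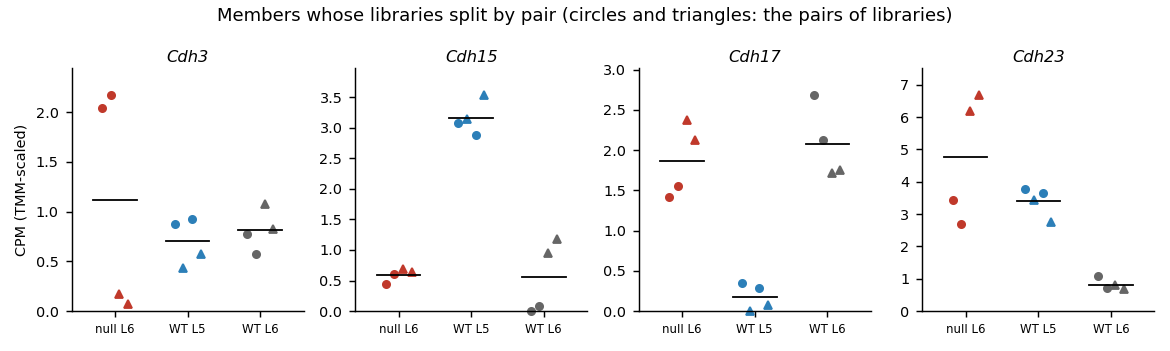
CPM of Cdh3, Cdh15, Cdh17 and Cdh23 in each of the 12 libraries, with a line at the group mean; circles and triangles mark the pairs of libraries, and the genes were chosen after their values were seen. Null L6 libraries of Cdh3 stand at 2.04 and 2.17 CPM in one pair and at 0.172 and 0.0716 CPM in the other, and WT L6 libraries of Cdh15 at 0 and 0.0900 CPM against 0.947 and 1.18 CPM.

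Cdh3, or P-cadherin, was not called in any of the 3 comparisons. It had 96, 98, 7 and 3 counts in null, 35, 15, 29 and 16 counts in WT layer 5 and 37, 19, 49 and 45 counts in WT layer 6. Null replicates 1 and 2 were above every other library and null replicates 3 and 4 below every other library, with the group mean between the pairs. Cdh1, which neighbours Cdh3 on chromosome 8 with 0 protein-coding genes between them, did not split in this way, with 263, 243, 262 and 306 counts in null libraries.

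Of 33 partner genes tested between the layers, 20 were higher in WT layer 5, 11 were lower and 2 were not called (93.9% called, against 85.5% of all genes), with a median log2 fold change of 0.26 against -0.010 over all genes. Of 9 catenin genes, 6 were higher and 3 lower. Ctnnd2, the neuronal delta-catenin gene, was higher at 0.76 ± 0.023 and Pkp4 at 0.65 ± 0.022, whereas Ctnnd1, which encodes p120-catenin, was lower at -0.68 ± 0.023 on the log2 scale. Ctnnbip1, an inhibitor of beta-catenin in transcription, was higher at 1.26 ± 0.021, and the WAVE gene Wasf3 at 1.31 ± 0.043.

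Null layer 6 was also set against WT layer 5, a comparison that shares libraries with both others. Genotype, layer and sequencing batch (A against B and C) cannot be told apart in it, and the astrocyte markers summed to 981 to 1048 CPM in null layer 6 and 4929 to 4968 CPM in WT layer 5, whose part was not tested. Of 34 members tested, 18 were higher in null layer 6 and 13 lower, 91.2% against 84.3% of all genes (42.4% higher and 41.8% lower), and Cdh3, Cdh6 and Cdh23 were not called. The groups did not overlap in 31 of the 34 (80.2% of all genes), 12 were called and over 2-fold (28.2%), and 23 of 24 at a mean of at least 10 CPM were called (88.7%). With pairs summed the member counts were also 18 and 13, where 77% of all genes were called. Cdh6 averaged 17.7 ± 1.63 CPM in null layer 6 and 17.2 ± 0.568 CPM in WT layer 5, which overlap, below 21.7 ± 1.80 CPM in WT layer 6 (SD, n = 4 each). Cdh23 averaged 4.75 ± 1.97 CPM in null layer 6 and 3.40 ± 0.462 CPM in WT layer 5, which also overlap, above 0.819 ± 0.173 CPM in WT layer 6. Of the 34 members with any count, the mean was highest in null layer 6 for 13, in WT layer 5 for 12 and in WT layer 6 for 9. Cdh8 had the order null layer 6, WT layer 6, WT layer 5, with each step called and no overlap (188 ± 7.96, 109 ± 3.78 and 54.7 ± 1.49 CPM). Cdh9 had the opposite order, WT layer 5, WT layer 6, null layer 6, with each step called (19.4 ± 0.832, 11.9 ± 0.776 and 5.12 ± 0.741 CPM). Cdh2 did not differ between null and WT layer 6 beyond its spread and was lowest in WT layer 5.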

How the data were processed

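For 12 RNA libraries of the 18 samples the authors deposited raw read counts per gene. The submitters' processing notes name STAR 2.5.2b, HTSeq and bedtools, and mm9 as build. Per the labels' protocols a stranded kit for ribosome-depleted total RNA was used. Whether counting used strand is not given, so reads of overlapping genes cannot be assigned with certainty. The authors also deposited a normalized table of 14567 genes with whole-number scores, whose making is not described in the sources used here. It entered only an alternative (limma on log2 values, pseudocount 1). Peak lists were not used.

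Counts were tested with edgeR 4.0.16 (R 4.3.3) by glmQLFit and glmQLFTest with TMM scaling and filterByExpr on the 2 groups compared, with Benjamini-Hochberg adjustment over all genes tested and a threshold of 0.05. Standard errors are the absolute log2 fold change divided by the square root of F. Alternatives used DESeq2 1.42.0, limma 3.58.1, other scalings and filters, and all 3 groups in 1 fit. Others used a replicate block, summed pairs, batches and libraries left out. Libraries held 27465597 to 54899002 counts, and the spread between libraries exceeded counting error. Counts were also simulated for null against WT layer 6 (14507 genes). The shares recovered were 60% at 1.25-fold, 72% at 1.5-fold, 86% at 2-fold and 96% at 4-fold, with 15 false calls. The simulated libraries were drawn independently, without the pairs seen in the data. These shares and false calls may therefore not hold for the real libraries.

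The members, the partner and marker lists and the tests were chosen with earlier results of these data known. Named with the value in every library were members called between null and WT layer 6, members called between layers with a log2 fold change of at least 2 in size, and Cdh2; other members are given by mean or range, and partners by the 6 smallest adjusted p per comparison, to which Ctnna2, Cdh3, Cdh12 and Pcdh15 were added after their values were seen. The values of 1 partner gene that the rule names are not reported here. Sequences come from RefSeq, GRCm38.p6. All columns matched a sample.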

Additional observations from a re-analysis of the deposited data

Results flagged for a closer look

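Over the members and the 3 groups of 4 libraries, 1 library stood far from its group by a gap test (Dixon), where chance flags about 1 in 20 groups. Pcdh10 in WT layer 5 replicate 3 stood at 220 CPM, against 226 to 227 CPM in the other layer 5 libraries, a gap of 0.909 of the range. The Pcdh10 call between layers was kept without that library.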

How the results depend on the processing

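Between null and WT layer 6, 18 members were called. Against a fold of 1.5, 3 were higher and 1 was lower, where 147 of 14588 genes were called. With the libraries of a pair summed 4 were higher and 2 lower, where 3.15% of all genes were called. With 1 library left out, 9 to 12 were higher and 7 to 8 lower, where 11.1% to 12.5% of all genes were called. In WT layer 5 over WT layer 6 these member ranges were 13 to 15 higher and 17 lower in each fit. Of all genes, 83.5% to 84.9% were called in those fits. In null layer 6 over WT layer 5, 18 to 19 members were higher and 13 lower. Of all genes, 82% to 83.5% were called there. All called members kept their direction under every alternative of the first 2 comparisons in which they were tested. Leaving aside the fold threshold and the summed pairs, 12 of the 18 calls held under all 18 other alternatives, and Cdh5, Cdh6, Pcdh7, Pcdh9, Pcdh11x and Pcdh17 lost theirs in 1 to 7 of them; the cause was not tested. Between layers Cdh7 lost its call in 3 of them. Cdh19 was tested in 16 and Cdh26 in 15 of the 18, and both kept their calls where tested, as did the other 28 members in all 18. The authors' normalized scores also moved Cdh12 to -0.32 and Cdh22 to 0.53 between layers on the log2 scale. Same-numbered replicates did not deviate together between null and WT layer 6 (r from -0.0803 to -0.0580), which gives no sign of pairing by number. Deviations were centred within each group of few libraries, so such small values cannot exclude pairing. With a replicate block, 8 members were higher and 7 lower, without the calls of Cdh6, Pcdh7 and Pcdh9, and 1526 genes were called in all, against 2068. Scaling by library totals alone kept all 18 calls but moved the share of higher calls over all genes to 41.2%, against 51.6% with TMM. Depth limits Cdh16, Cdh19 and Cdh26, and a split between pairs of libraries limits Cdh3, Cdh15, Cdh17 and Cdh23. The WT layer 6 pairs also differed in Pcdh7, Pcdh9, Pcdh11x and Pcdh17. This was not confined to those genes. The pairs also did not overlap in Cdh4, Cdh6, Cdh11, Cdh18, Cdh24, Pcdh1 and Pcdh20, among others.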
